A study of Mus musculus with 24 samples.

Results

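The genes described here are 43 mouse genes of the lysosome, chosen by name with earlier results of these data known. They comprise 6 membrane proteins, 8 proteases, 7 glycosidases of glycoproteins, glycolipids and glycogen, 8 enzymes of glycosaminoglycan breakdown, 8 lipid enzymes and lipid-binding proteins, 3 subunits of the V-ATPase proton pump and the 3 transcription factors *Tfeb*, *Tfe3* and *Mitf*. The counts table held 53801 genes, of which 12963 had enough reads to be tested, and 42 of the 43 lysosomal genes were among them. *Ctsh*, which encodes the aminopeptidase cathepsin H, had 0 to 2 reads in each library and was not tested.

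RNA was sequenced from ER-Hoxb8 cells, mouse granulocyte-monocyte progenitors held in an immature state by a Hoxb8 protein that needs estrogen. The cells carried WT-ERG, P199L-ERG (ERG with leucine in place of a conserved proline) or the vector without ERG (BB), introduced by lentivirus and selected by sorting for GFP. In all groups β-estradiol was washed out, and the cells were kept with BRD3308, an inhibitor of the deacetylase HDAC3, or with its solvent DMSO. The dose of 5 µM and the time of 36 h are those of the study's methods, since the labels give neither, and other passages of the study give a lower dose and a longer time. Construct and treatment together gave 6 groups with 4 libraries each, described as independent experiments. Each construct was a stable line, and separate transductions for the replicates are not stated, so differences between constructs can include differences between the lines. The p-values measure the spread between these libraries.

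Lysosomes are acidic organelles in which proteins, glycans and lipids are broken down. Most of their enzymes are tagged with mannose 6-phosphate in the Golgi and carried to the lysosome, and the V-ATPase pumps in the protons that keep the lumen acidic. TFEB, TFE3 and MITF, members of the MiT/TFE family, are held in the cytoplasm when mTORC1 is active and otherwise enter the nucleus, where they bind the CLEAR element in promoters of lysosomal genes. In myeloid cells, macrophages are rich in lysosomes, and the primary granules of neutrophils are related organelles that share some of their hydrolases.

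The CLEAR element has the core TCACGTG, which contains the E-box core CACGTG. Promoter windows from 250 bases before to 50 bases after the transcription start were taken from RefSeq (GRCm38.p6) and searched on both strands. Of the 43 genes, 37 had such a window, and *Ctsb*, *Ctsh*, *Asah1*, *Galns*, *Hgsnat* and *Atp6v1h* had none in the table used. The CLEAR core occurred in 10 of the 37 genes (27.0%), against 4.29% of 27025 genes in the table. Every gene with the CLEAR core also counts for the shorter E-box core, which occurred in 11 of the 37 (29.7%) against 8.09% of all genes. The M-box core TCATGTG, another site of MiT/TFE factors, occurred in 6 of the 37 (16.2%) against 4.31%.

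The stretches that hold the cores upstream of the start are printed to show how the sites lie, with *Lamp1* holding 4 in a row and *Mcoln1* and *Gla* holding 2 close together. They run 5′ to 3′ on the strand of the gene, and capitals mark the CLEAR core, which includes 8 letters where cores of both strands overlap.
*Ctsa*, chr2:164833740-164833772, plus strand: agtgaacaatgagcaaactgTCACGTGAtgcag
*Ctsd*, chr7:142388046-142388077, minus strand: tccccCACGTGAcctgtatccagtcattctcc
*Ctsd*, chr7:142387899-142387946, minus strand: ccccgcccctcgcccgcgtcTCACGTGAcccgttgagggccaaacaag
*Gaa*, chr11:119267802-119267848, plus strand: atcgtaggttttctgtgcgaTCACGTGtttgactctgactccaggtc
*Gla*, chrX:134601173-134601253, minus strand: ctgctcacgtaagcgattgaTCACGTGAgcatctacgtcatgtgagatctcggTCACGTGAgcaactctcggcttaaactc
*Glb1*, chr9:114401009-114401055, plus strand: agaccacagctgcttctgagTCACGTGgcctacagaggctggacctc
*Lamp1*, chr8:13159079-13159160, plus strand: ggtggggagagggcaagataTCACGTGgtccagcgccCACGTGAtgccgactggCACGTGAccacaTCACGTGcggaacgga
*Mcoln1*, chr8:3500427-3500500, plus strand: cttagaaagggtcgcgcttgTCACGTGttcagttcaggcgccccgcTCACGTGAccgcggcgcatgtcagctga
*Naglu*, chr11:101070000-101070046, plus strand: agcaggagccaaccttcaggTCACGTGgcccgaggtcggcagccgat
*Sgsh*, chr11:119355513-119355559, minus strand: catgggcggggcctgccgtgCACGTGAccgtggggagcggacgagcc
*Ctsa* held a further core that begins at position 5 of the transcript, and the only core of *Atp6v0d1*, whose product is a V-ATPase membrane-sector subunit, spans its start. These are matches of letters and not measured binding sites.

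**Figure D1:**
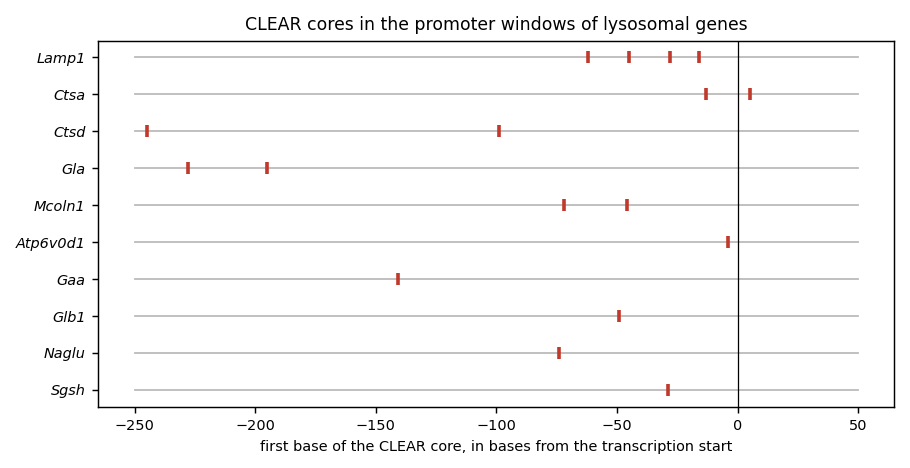
Each mark is the first base of a CLEAR core (TCACGTG on either strand) in the promoter window of a lysosomal gene, plotted by its distance in bases from the transcription start, with 1 line for each of the 10 genes. The 4 cores of *Lamp1* began between -62 and -16, and those of *Gla* farther upstream at -228 and -195.

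Per length, most of the lysosomal genes lay above the median gene. The median level of the 42 tested genes was between 32.9 and 36.7 reads per 1000 bases of exon and 1000000 counts (RPKM) in the 6 groups, against 6.00 to 6.14 RPKM for all genes tested, and 32 to 34 of the 42 were above that median. In DMSO-treated BB cells the highest level was that of *Ctsd*, the aspartic protease cathepsin D, with 313 ± 9.54 RPKM (SD, n = 4). It was followed by *Lamp1*, an abundant glycoprotein of the lysosomal membrane (198 ± 7.40 RPKM), and *Psap*, the precursor of the saposins that present sphingolipids to their hydrolases (152 ± 1.22 RPKM). Next came the tetraspanin *Cd63* (139 ± 2.65 RPKM) and the carboxypeptidase *Ctsz* (135 ± 3.10 RPKM), which differed by less than the sum of their SD.

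The lowest tested levels in the same cells belonged to *Ctss* (0.316 ± 0.165 RPKM), the iduronate sulfatase *Ids* (0.480 ± 0.0666 RPKM), the sulfamidase *Sgsh* (0.798 ± 0.101 RPKM) and *Mitf* (1.04 ± 0.197 RPKM). The other factors were higher, with *Tfeb* at 5.78 ± 0.600 RPKM and *Tfe3* at 4.52 ± 0.162 RPKM, both a little under the median gene. Exons of *Ctsd* shared 34.4% of their length with another gene on the same strand, those of *Ctsl* 6.1% and those of *Glb1* 5.5%. Exons of *Arsb* (39.9%), *Ctsl* (26.8%), *Sgsh* (21.6%), *Ctsa* (17.4%), *Ctsb* (12.8%) and *Hexa* (12.8%) overlapped genes on the other strand. The strand setting of the counting is not given in the sources used here, so reads of genes that overlap on opposite strands cannot be told apart. For the overlaps on the same strand, no strand setting would separate the shared reads.

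**Figure D2:**
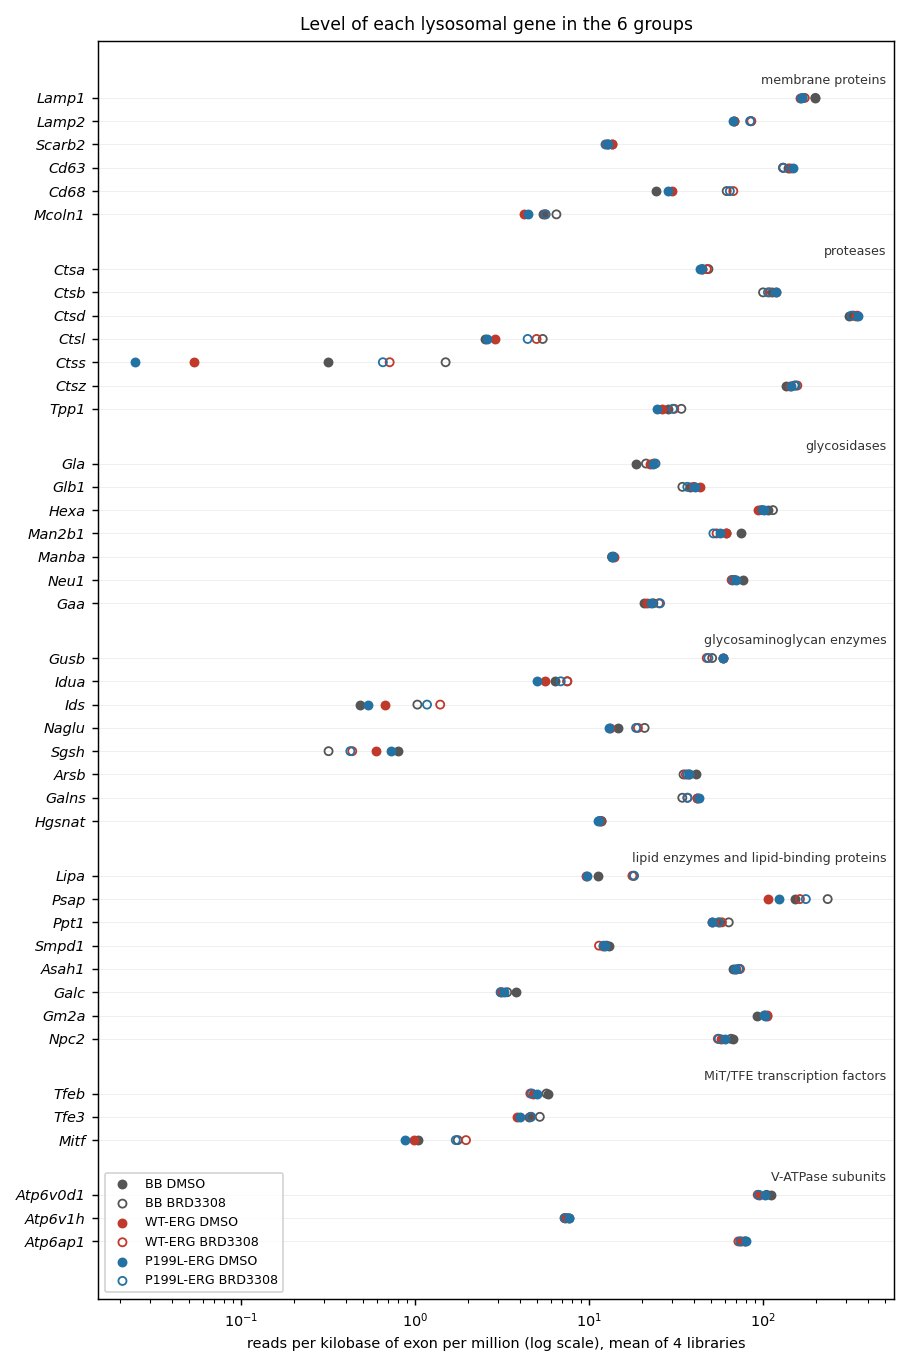
Level of each of the 42 tested genes in RPKM on a log scale, as the mean of 4 libraries in each group (filled circles DMSO, open circles BRD3308; grey BB, red WT-ERG, blue P199L-ERG). *Ctsd* stood at the top of the range and *Ctss* at the bottom, and for most genes the 6 groups lay close together.

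The 24 libraries held 12510036 to 16280939 counts. Markers of granulocyte-monocyte progenitors took between 2.36% and 2.89% of the scaled counts in the 6 groups. Replicate 4 of DMSO-treated WT-ERG cells and of DMSO-treated P199L-ERG cells stood apart by high counts for short genes, with correlations of -0.473 and -0.439 between the deviation from the group mean and log2 exon length over 9763 genes, against -0.211 to 0.424 in the other 22 libraries. Counts of called genes are therefore also given without both. *Arsb* was low in both libraries, and *Man2b1* was low in the P199L-ERG one.

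The first question was how BRD3308 moved the lysosomal genes. In each construct a larger number of them rose than fell. The cysteine protease gene *Ctss* had few reads and passed the filter on low counts through its BRD3308 libraries. It had the highest fold change in each construct, followed by the macrophage glycoprotein *Cd68*, which rose by 1.18 to 1.34 on the log2 scale. The cysteine protease *Ctsl*, the sulfatase *Ids*, the lipase *Lipa*, the saposin precursor *Psap* and the transcription factor *Mitf* rose in all 3 as well, whereas *Tfeb* did not pass the test in any construct. *Ctsb*, *Galns*, *Glb1* and *Gusb* fell in all 3 constructs, each by 0.31 or less on the log2 scale. The summed level of all members went from 8397 ± 131 to 8798 ± 74.9 counts per 1000000 (CPM, scaled by TMM; SD, n = 4) in BB cells, from 8033 ± 196 to 8412.5 ± 111 CPM with WT-ERG and from 8124 ± 223 to 8294 ± 44.3 CPM with P199L-ERG.

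In BB cells 20 of the 42 members rose and 9 fell (edgeR quasi-likelihood test, adjusted p under 0.05), against 24% and 22% of all genes tested. With WT-ERG 18 rose and 6 fell, against 24.7% and 23.2%. With P199L-ERG 15 rose and 9 fell, against 24.4% and 24.1%. The share of members that rose was above that of all genes in each construct, and the share that fell was near it or under it. Most members lay above the median gene in level, where smaller changes can pass. Shares of all genes were not matched for level, here or in the comparisons of constructs. In both, the members were chosen with earlier results of these data known. A share above that of all genes is thus a description and no independent support. The median log2 fold change of the members was 0.09, 0.05 and 0.03 in BB, WT-ERG and P199L-ERG cells, against 0.01, -0.00 and -0.01 for all genes. Without both libraries that stood apart, 19 rose and 6 fell with WT-ERG, and 16 rose and 9 fell with P199L-ERG. Of the calls this changed, those not given with the gene were *Scarb2* with WT-ERG, which no longer passed (-0.10, adjusted p = 0.0596), and in P199L-ERG cells *Gaa*, *Ctsd* and *Npc2*, which no longer passed (0.10, -0.03 and -0.07, adjusted p = 0.109, 0.371 and 0.0836), and *Ctsz* (0.13, adjusted p = 0.00232) and *Gla* (0.16, adjusted p = 0.00576), which then passed. Among genes with more than 30 reads in every library, which left 39 members, 3 fell with WT-ERG.

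The same 15 members rose in all 3 responses, among 17.3% of all genes that did so, and 4 fell in all 3, among 15.1%. These comparisons use separate libraries for each construct, although libraries with the same replicate number tended to deviate alike. No member rose in one construct and fell in another. Besides *Tfeb*, the 6 members that passed in no response were *Atp6v0d1*, *Atp6v1h*, *Hexa*, *Hgsnat*, *Manba* and *Smpd1*.

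Of the membrane proteins, *Cd68* moved most. It is a heavily glycosylated protein of late endosomes and lysosomes that is known as a macrophage marker. In BB cells its 4 DMSO libraries held 30.8, 28.7, 31.1 and 31.8 CPM and its BRD3308 libraries 73.5, 79.04, 77.6 and 79.9 CPM. With WT-ERG the values were 34.8, 38.7, 35.7 and 40.3 CPM in DMSO and 87.6, 81.4, 87.3 and 82.1 CPM with BRD3308. With P199L-ERG they were 36.6, 34.6, 38.4 and 33.2 and 79.7, 79.6, 80.9 and 83.1 CPM. No library with BRD3308 overlapped one with DMSO, and the log2 fold change was 1.34, SE 0.05, adjusted p = 4.85e-18 in BB, 1.18, SE 0.05, adjusted p = 5.07e-17 with WT-ERG and 1.18, SE 0.05, adjusted p = 5.96e-17 with P199L-ERG.

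*Lamp2*, which takes part in autophagosome fusion and chaperone-mediated autophagy, rose by 0.31, 0.33 and 0.33 on the log2 scale in BB, WT-ERG and P199L-ERG cells (adjusted p = 1.77e-09, 6.4e-10 and 6.15e-10). *Mcoln1*, the lysosomal calcium channel TRPML1, rose by 0.25, 0.39 and 0.34 (adjusted p = 0.00507, 7.01e-05 and 0.00032). *Lamp1* was at 529.9 ± 19.8 CPM in DMSO and 534 ± 12.6 CPM with BRD3308 in BB cells and passed only with WT-ERG (0.08, SE 0.03, adjusted p = 0.0456), a call that ended without any one of 6 of the 8 libraries compared. *Cd63* passed only with P199L-ERG, in which it fell by 0.18 (SE 0.06, adjusted p = 0.00903). *Scarb2*, the receptor that carries glucocerebrosidase to the lysosome, passed only with WT-ERG (-0.10, SE 0.04, adjusted p = 0.0448), and that call ended without any one of 5 libraries.

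Among the proteases, *Ctsl* encodes cathepsin L, a cysteine endopeptidase. It was at 16.5, 17.6, 16.05 and 15.1 CPM in the DMSO libraries of BB cells and at 33.1, 35.3, 34.8 and 37.1 CPM with BRD3308 (log2 fold change 1.10, SE 0.09, adjusted p = 2.48e-11). With WT-ERG it went from 16.3, 17.6, 17.5 and 23.5 CPM to 29.1, 29.95, 35.05 and 35.1 CPM (0.79, SE 0.08, adjusted p = 1.09e-08), and with P199L-ERG from 16.02, 16.1, 17.96 and 16.6 CPM to 28.2, 26.4, 29.9 and 30.4 CPM (0.79, SE 0.09, adjusted p = 1.91e-08). The groups did not overlap in any construct, although replicate 4 of DMSO-treated WT-ERG cells was above the other 3 of its group.

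*Ctss* encodes cathepsin S, which trims the invariant chain of MHC class II in antigen-presenting cells, and it had few reads. Summed over 4 libraries, BB cells held 25 reads in DMSO and 118 with BRD3308, a ratio of 4.59 per scaled read (95% exact counting interval 2.96 to 7.38). WT-ERG cells held 4 and 58 reads (ratio 14.4, interval 5.32 to 54.5), and P199L-ERG cells 2 and 54 reads (ratio 26.4, interval 6.97 to 224). The intervals cover counting error only. *Ctss* passed the test in each construct (adjusted p = 3.27e-06, 4.1e-06 and 2.5e-06). At 0 to 12 reads each, its DMSO libraries alone would not have passed the filter on low counts. It was thus tested because of its reads with BRD3308, and these p-values are no independent support for a rise. The counts of members that rose include it.

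The tripeptidyl peptidase *Tpp1* rose by 0.26 (SE 0.05) in BB cells, 0.23 (SE 0.05) with WT-ERG and 0.30 (SE 0.05) with P199L-ERG. *Ctsb*, cathepsin B, went the other way, from 684 ± 24.96 to 604 ± 16.9 CPM in BB cells (-0.18, SE 0.04, adjusted p = 0.00023 on the log2 scale), and fell by 0.12 (SE 0.04) with WT-ERG and by 0.15 (SE 0.04) with P199L-ERG. *Ctsz* and the carboxypeptidase *Ctsa* rose in BB and WT-ERG cells by 0.17 or less, and the WT-ERG call of *Ctsa* (0.10, adjusted p = 0.0417) ended without any one of 5 libraries. *Ctsd* was at 749, 764, 807 and 987 CPM in DMSO-treated and 774, 748, 753 and 756 CPM in BRD3308-treated P199L-ERG cells. Its fall there (-0.13, SE 0.05, adjusted p = 0.0497) was -0.04 without replicate 4 of the DMSO-treated cells (adjusted p = 0.294), and it also ended without DMSO replicate 3 or BRD3308 replicate 2, 3 or 4.

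The glycosidases moved little. *Man2b1*, the lysosomal α-mannosidase, was at 606, 589, 598 and 591 CPM in DMSO and 513, 496, 482 and 487 CPM with BRD3308 in BB cells, without overlap (log2 fold change -0.27, SE 0.06, adjusted p = 0.000552). With WT-ERG it fell by 0.18 (SE 0.06) from 494, 497, 491 and 485 to 456, 429, 421 and 426 CPM. With P199L-ERG, where DMSO replicate 4 was far below the other 3, the values were 511, 461, 479 and 357 CPM against 432, 399, 411 and 418 CPM, and the log2 fold change of -0.12 (SE 0.06) did not pass (adjusted p = 0.0961). Without both libraries that stood apart it was -0.22 and passed (adjusted p = 2.59e-06).

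*Glb1*, the β-galactosidase whose activity is used as a mark of senescence, fell by 0.14 (SE 0.04), 0.12 (SE 0.04) and 0.15 (SE 0.04) in BB, WT-ERG and P199L-ERG cells. With WT-ERG that call ended without DMSO replicate 3 (-0.11, adjusted p = 0.0543) or BRD3308 replicate 2 (-0.11, adjusted p = 0.0648). *Neu1*, the sialidase, fell in BB cells only by the test (-0.15, SE 0.03), and its values with WT-ERG and P199L-ERG were -0.01 and -0.07. *Gaa*, the acid α-glucosidase that breaks down glycogen, rose by 0.18, 0.22 and 0.16 (SE 0.06 in each), but leaving out 1 library ended the call for 3 of 8 libraries in BB, 1 of 8 with WT-ERG and 3 of 8 with P199L-ERG. *Gla*, the α-galactosidase A, rose in BB cells by 0.20 (SE 0.07, adjusted p = 0.0156), and by 0.15 without DMSO replicate 1 (adjusted p = 0.079).

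The enzymes of glycosaminoglycan breakdown split in direction. *Ids*, *Naglu* and *Idua* rose in all 3 constructs, while *Gusb* and *Galns* fell in all 3 and *Sgsh* fell in 2. *Ids* encodes the sulfatase that starts the breakdown of heparan and dermatan sulfate. Its BB libraries held 2.86, 2.35, 2.53 and 2.05 CPM in DMSO and 5.46, 5.06, 4.60 and 5.85 CPM with BRD3308 (log2 fold change 1.09, SE 0.14, adjusted p = 2.01e-07). The WT-ERG libraries went from 3.58, 2.67, 4.03 and 3.40 to 7.10, 7.70, 7.68 and 5.89 CPM (1.06, SE 0.12, adjusted p = 3.59e-08), and the P199L-ERG libraries from 2.70, 2.89, 2.51 and 2.85 to 6.02, 5.38, 5.95 and 6.48 CPM (1.12, SE 0.13, adjusted p = 4.59e-08). In each construct every BRD3308 library was above every DMSO library.

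*Naglu*, the N-acetylglucosaminidase of heparan sulfate, rose from 39.01 ± 2.24 to 55.3 ± 2.49 CPM in BB cells (0.50, SE 0.06), from 34.9 ± 2.29 to 50.6 ± 1.82 CPM with WT-ERG (0.54, SE 0.06) and from 34.6 ± 3.09 to 49.4 ± 2.71 CPM with P199L-ERG (0.51, SE 0.06). The iduronidase *Idua* rose by 0.23 (SE 0.07), 0.43 (SE 0.07) and 0.46 (SE 0.08). In BB cells the call of *Idua* ended without DMSO replicate 1 (0.19, adjusted p = 0.0515), BRD3308 replicate 3 (0.19, adjusted p = 0.0613) or BRD3308 replicate 4 (0.18, adjusted p = 0.0636).

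*Gusb*, the β-glucuronidase, was at 262, 266, 270.4 and 273 CPM in DMSO and 230.5, 236, 228 and 232 CPM with BRD3308 in BB cells (log2 fold change -0.21, SE 0.03, adjusted p = 3.64e-06). With WT-ERG it fell from 267, 263, 262 and 276 to 221, 224, 208 and 209 CPM (-0.31, SE 0.03, adjusted p = 4.8e-09), and with P199L-ERG from 265, 260.4, 265 and 276 to 224, 218, 223 and 216 CPM (-0.28, SE 0.03, adjusted p = 4.05e-08), again with no overlap. *Galns*, the sulfatase of keratan sulfate, fell by 0.28 from 107, 110.0, 111 and 112 to 94.6, 86.7, 94.3 and 87.6 CPM in BB cells. The fall was 0.18 with WT-ERG and 0.21 with P199L-ERG (SE 0.04 in each of the 3), in the latter from 119.9, 111, 112 and 109 to 99.6, 95.4, 99.4 and 94.9 CPM.

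*Sgsh*, the sulfamidase of heparan sulfate, is a gene of few reads here. It fell in BB cells from 3.86, 3.56, 2.88 and 3.78 to 1.33, 1.84, 1.13 and 1.30 CPM (-1.33, SE 0.21, adjusted p = 8.57e-06) and with P199L-ERG from 2.90, 3.08, 3.62 and 3.14 to 1.18, 1.46, 2.74 and 2.09 CPM (-0.77, SE 0.20, adjusted p = 0.00234). With WT-ERG its groups overlapped, at 2.67, 3.16, 1.86 and 2.75 CPM in DMSO and 1.62, 2.40, 1.74 and 1.91 CPM with BRD3308, and the change of -0.43 (SE 0.21) did not pass (adjusted p = 0.0867). *Arsb*, the arylsulfatase B, fell in BB cells (-0.25, SE 0.06), and its values with WT-ERG and P199L-ERG were -0.06 and -0.03. Without both libraries that stood apart *Arsb* fell in those as well (-0.09, adjusted p = 0.0264, and -0.13, adjusted p = 0.0015).

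Of the lipid genes, *Lipa* encodes the acid lipase that frees cholesterol and fatty acids from lipoprotein lipids. It went from 74.7, 72.1, 80.6 and 78.2 to 121, 125, 118 and 125 CPM in BB cells (0.68, SE 0.05, adjusted p = 1.07e-12), from 61.05, 64.01, 65.5 and 69.1 to 124, 117, 119 and 121 CPM with WT-ERG (0.89, SE 0.05, adjusted p = 3.99e-15) and from 64.02, 68.2, 70.7 and 61.2 to 123, 125, 117 and 126 CPM with P199L-ERG (0.89, SE 0.05, adjusted p = 3.39e-15). The 3 constructs reached nearly the same level with BRD3308, from lower DMSO levels with either ERG construct.

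*Psap* rose from 419, 413, 414 and 419.7 to 617, 657, 635 and 668 CPM in BB cells (0.63, SE 0.03, adjusted p = 5.93e-15), the largest gain in CPM of any member. With WT-ERG it rose from 297, 286, 290.5 and 292 to 444, 441, 450.0 and 449.8 CPM (0.62, SE 0.03, adjusted p = 1.33e-14), and with P199L-ERG from 329.9, 322, 332 and 361 to 494, 479.8, 468 and 487 CPM (0.52, SE 0.03, adjusted p = 4.09e-13). *Ppt1*, the palmitoyl-protein thioesterase, rose by 0.19, 0.20 and 0.13 (SE 0.04 in each). *Galc*, the galactosylceramidase, fell in BB cells (-0.18, SE 0.04, adjusted p = 0.00168), and its values with WT-ERG and P199L-ERG were -0.00 and -0.06. *Asah1*, the acid ceramidase, passed in BB cells only (0.11, adjusted p = 0.0142), and not without BRD3308 replicate 2 (0.10, adjusted p = 0.059). It also passed with WT-ERG without both libraries that stood apart (0.11, adjusted p = 0.00327). *Npc2* passed with P199L-ERG only (-0.12, adjusted p = 0.0271), and not without DMSO replicate 4 (-0.07, adjusted p = 0.104). The sphingomyelinase *Smpd1* passed in no response, with values of -0.04, -0.08 and -0.03.

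Of the transcription factors, *Mitf* and *Tfe3* rose and *Tfeb* did not pass. *Mitf*, which is best known from melanocytes, mast cells and osteoclasts, was at 7.37, 5.27, 5.56 and 7.65 CPM in DMSO and 10.3, 9.39, 10.9 and 12.9 CPM with BRD3308 in BB cells (0.76, SE 0.13, adjusted p = 3.02e-05). It went from 5.40, 6.31, 6.63 and 6.07 to 10.7, 9.86, 14.3 and 13.7 CPM with WT-ERG (0.98, SE 0.13, adjusted p = 5.28e-07) and from 4.63, 5.71, 5.50 and 5.70 to 9.95, 9.50, 11.6 and 11.3 CPM with P199L-ERG (0.97, SE 0.14, adjusted p = 9.96e-07), with no overlap in any construct. *Tfe3* rose by less, from 43.6, 42.6, 40.8 and 40.4 to 49.9, 49.4, 45.9 and 47.4 CPM in BB cells (0.20, SE 0.05, adjusted p = 0.00144). With WT-ERG it rose from 36.00, 36.5, 34.8 and 35.9 to 42.2, 43.3, 40.4 and 44.6 CPM (0.25, SE 0.05, adjusted p = 0.000165) and with P199L-ERG from 37.1, 38.7, 38.6 and 33.6 to 45.9, 41.9, 42.5 and 41.3 CPM (0.21, SE 0.05, adjusted p = 0.00091).

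*Tfeb* held 28.7, 32.3, 33.00 and 36.98 CPM in DMSO and 30.4, 30.6, 31.8 and 35.98 CPM with BRD3308 in BB cells. Its values were 25.9, 25.7, 25.97 and 30.2 and 24.6, 25.6, 23.8 and 30.05 CPM with WT-ERG and 25.4, 28.6, 29.1 and 30.5 and 24.03, 28.3, 25.9 and 27.7 CPM with P199L-ERG. The groups overlapped in each construct, and the log2 fold changes of -0.02 (95% confidence interval -0.19 to 0.14), -0.05 (-0.22 to 0.12) and -0.10 (-0.27 to 0.07) did not pass. The levels are of RNA, and where these factors are in the cell was not measured. Of the V-ATPase subunits, *Atp6ap1*, an accessory subunit, passed with P199L-ERG only (-0.10, SE 0.03, adjusted p = 0.00807). *Atp6v0d1* and *Atp6v1h* lay between -0.13 and -0.01 in the 3 responses without passing.

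**Figure D3:**
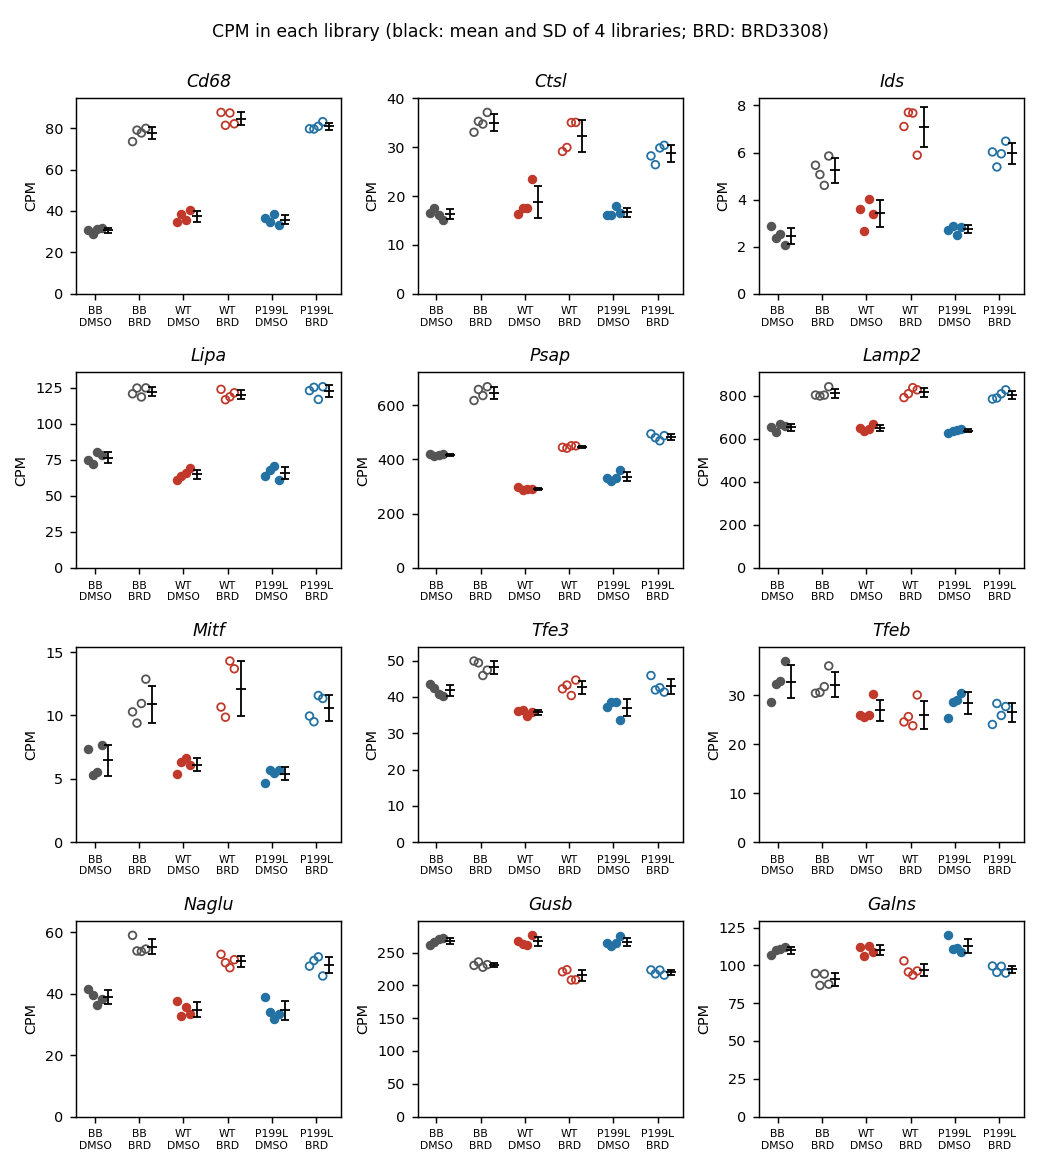
Level in CPM of 12 lysosomal genes in each of the 24 libraries, with axes from 0 (points, libraries; black marks, mean and SD of 4 libraries; filled DMSO, open BRD3308; grey BB, red WT-ERG, blue P199L-ERG). Every BRD3308 library of *Cd68*, *Ctsl*, *Ids*, *Lipa*, *Psap*, *Lamp2*, *Mitf*, *Tfe3* and *Naglu* was above the DMSO libraries of its construct, those of *Gusb* and *Galns* were below, and those of *Tfeb* overlapped. The 12 genes were chosen for display, and the share of all genes without overlap is not given.

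**Figure D4:**
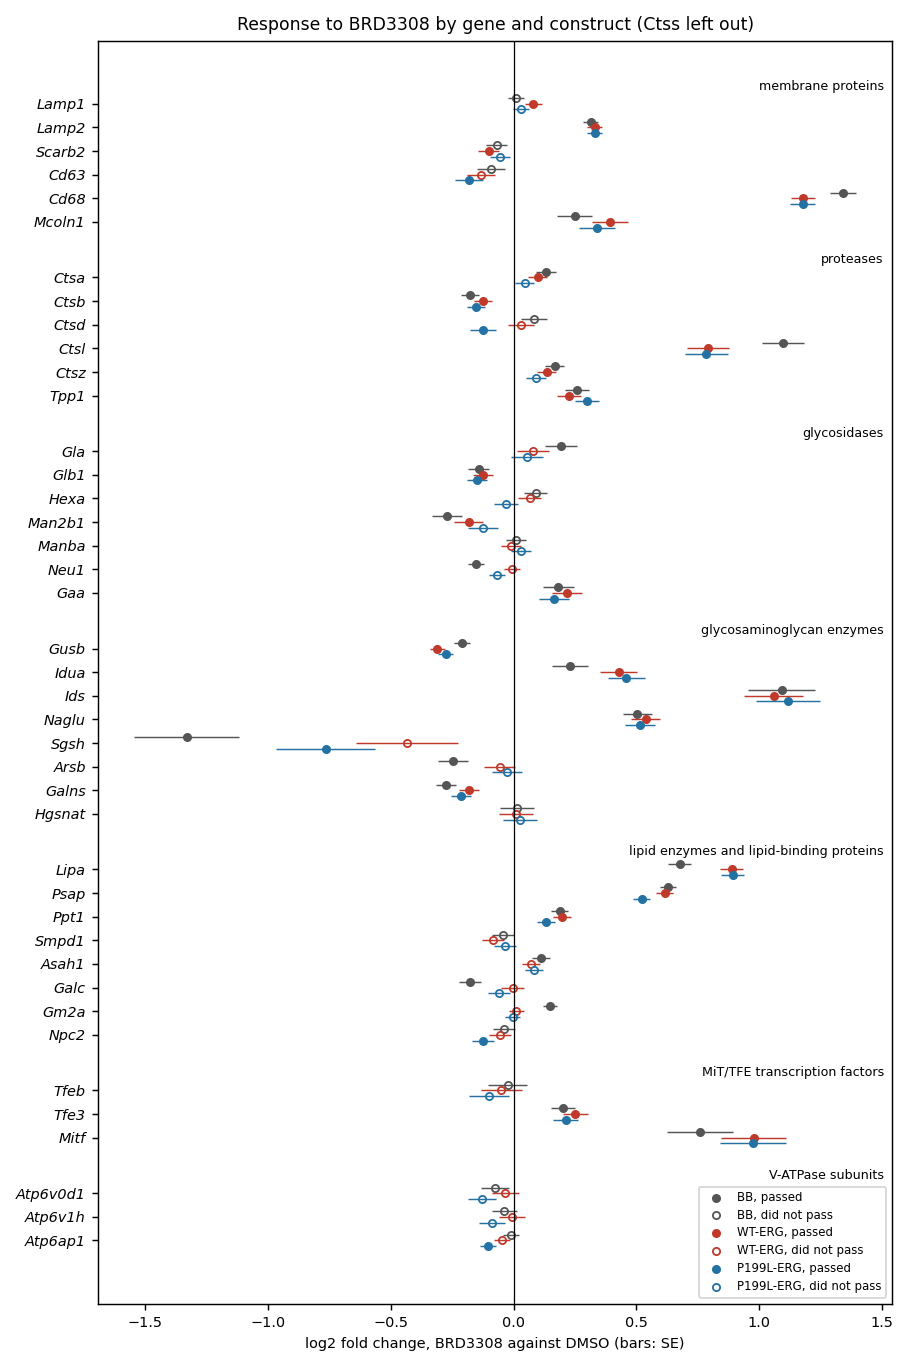
Log2 fold change of BRD3308 against DMSO for 41 lysosomal genes by role, with bars of 1 SE from the edgeR fit (grey BB, red WT-ERG, blue P199L-ERG; filled points passed at an adjusted p under 0.05, open points did not). *Ctss*, with 2 to 25 reads per DMSO group, is left out of the plot. *Cd68*, *Ctsl*, *Ids*, *Mitf* and *Lipa* lay farthest to the right, and *Sgsh* farthest to the left with the longest bars.

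The 10 genes with the CLEAR core responded in both directions. In BB cells 5 of these rose (*Ctsa*, *Gaa*, *Gla*, *Mcoln1* and *Naglu*) and 2 fell (*Glb1* and *Sgsh*), with a median log2 fold change of 0.11. Of the 27 genes without the core 14 rose and 5 fell, with a median of 0.15. The medians with and without the core were 0.08 and 0.07 with WT-ERG and 0.04 and 0.03 with P199L-ERG. *Lamp1*, with 4 cores, had values of 0.01, 0.08 and 0.03.

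Markers of monocytes and macrophages moved with these responses. Their summed level (10 listed genes) was between 795 and 839 CPM in DMSO-treated and between 1822 and 1952 CPM in BRD3308-treated BB cells, between 416 and 440 and between 1305 and 1391 CPM with WT-ERG, and between 463 and 524 and between 1493 and 1600 CPM with P199L-ERG. All 7 of these markers that could be tested rose in each construct, and the macrophage genes *C1qa* and *C1qb* were at 0 in all libraries. Neutrophil markers went from 3928 ± 411 to 6238.5 ± 719 CPM in BB cells, from 3468 ± 461 to 6793 ± 624 CPM with WT-ERG and from 3059 ± 407 to 6093.5 ± 369 CPM with P199L-ERG (SD, n = 4), with 5, 6 and 5 of 9 higher. Progenitor markers went from 25787 ± 246 to 23608 ± 707 CPM, from 26599 ± 995 to 25393 ± 555 CPM and from 28939 ± 1385 to 26360 ± 606 CPM, with 5, 4 and 4 of 7 lower. The neutrophil and progenitor counts give the stated direction only, and the sums follow the markers with the most reads. They do not show whether the remaining markers passed in the other direction, so neither list is said to move as a whole. Of all genes tested, 24%, 24.7% and 24.4% rose and 22%, 23.2% and 24.1% fell. In these bulk samples more cells of a type and more RNA per cell cannot be told apart, and the part of cell type in the changes of the lysosomal genes was not tested.

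Other lists were at lower levels, and their sums differed between groups. In BB, WT-ERG and P199L-ERG cells, eosinophil markers went from 60.1 to 144, 81.0 to 146 and 72.7 to 142.5 CPM with BRD3308. Mast cell and basophil markers went from 386 to 318, 509 to 323 and 444.5 to 282 CPM in the same order. B lymphocyte markers went from 28.8 to 49.6, 23.5 to 42.0 and 24.1 to 36.6 CPM. Megakaryocyte markers went from 20.4 to 31.6, 62.9 to 44.6 and 42.6 to 34.6 CPM. Summed over the list, mast cell and basophil markers were between 282 and 509 CPM in the 6 group means, eosinophil markers between 60.1 and 146 CPM, megakaryocyte markers between 20.4 and 62.9 CPM and B lymphocyte markers between 23.5 and 49.6 CPM. Dendritic cell markers reached at most 9.16 CPM, erythroid markers 2.06 CPM and T and NK lymphocyte markers 0.578 CPM, with *Cd209a* and *Cd4* at 0 in all libraries.

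The response itself was then compared between constructs. None of the 42 members passed in any of the 3 comparisons by the main edgeR fit. That fit holds no replicate block, and the calls with a block are given further below. Of all genes, 1.73%, 1.05% and 0.0463% were called (WT-ERG minus BB, P199L-ERG minus BB, P199L-ERG minus WT-ERG). At an unadjusted p under 0.05 there were 9, 10 and 1 members, against 10.4%, 12.8% and 5.89% of all genes. DESeq2 called *Gm2a*, *Lipa* and *Neu1* in the first comparison and *Gm2a* in the second, and limma-voom called none in any. Without a filter on low counts, *Arsb* passed in the second (0.24, adjusted p = 0.0273). That fit kept DMSO replicate 4 of P199L-ERG cells, where *Arsb* was at 177 CPM against 238 to 249 CPM in the rest of its group.

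The response of *Lipa* was higher by 0.21 with WT-ERG than in BB cells (95% confidence interval 0.08 to 0.34, edgeR adjusted p = 0.114) and by 0.22 with P199L-ERG (0.08 to 0.35, adjusted p = 0.12). *Gm2a*, the activator of ganglioside breakdown, was at 377, 382, 379.5 and 386 CPM in DMSO and 442, 422, 416 and 411 CPM with BRD3308 in BB cells. Its WT-ERG libraries held 432, 423, 437 and 441 and 446, 424, 443 and 435 CPM and its P199L-ERG libraries 429.6, 425, 416 and 409 and 429, 409.7, 418 and 420.3 CPM. The difference in its response was -0.14 (-0.22 to -0.05, adjusted p = 0.118) with WT-ERG and -0.15 (-0.24 to -0.07, adjusted p = 0.0883) with P199L-ERG. For *Neu1* the WT-ERG libraries held 244, 251, 246 and 248 CPM in DMSO and 258, 241, 244 and 241 CPM with BRD3308, against 294, 291, 284 and 270.2 and 267, 259.6, 254 and 245 CPM in BB cells (difference 0.15, 0.05 to 0.24, adjusted p = 0.158). Without both libraries that stood apart, *Lipa* (0.24, adjusted p = 0.0155) and *Arsb* (0.16, adjusted p = 0.0392) passed in the first comparison and *Gm2a* (-0.16, adjusted p = 0.0142) in the second.

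Between the ERG constructs the smallest p-values of the response difference were those of *Ctsd* (-0.16, 95% confidence interval -0.31 to -0.00, adjusted p = 0.83), *Psap* (-0.09, -0.19 to 0.00, adjusted p = 0.852) and *Hexa* (-0.10, -0.23 to 0.04, adjusted p = 0.907). *Hexa*, the α subunit of β-hexosaminidase, held 188, 185, 183 and 188 CPM in DMSO and 201, 195, 187 and 195 CPM with BRD3308 with WT-ERG, and 190.5, 190.3, 203 and 224 CPM in DMSO with P199L-ERG. The BRD3308 libraries of P199L-ERG ran from 187 to 216 CPM and overlapped the DMSO libraries.

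The constructs were also compared without the inhibitor. Against BB cells the lysosomal genes were more often lower than higher with either ERG construct, and apart from *Ctss*, which had few reads, the differences that passed were between -0.52 and 0.47 on the log2 scale. *Ctss*, *Psap*, *Man2b1* and *Mcoln1* were among the genes lower with both. *Cd68*, *Gla* and *Gm2a* were higher with both. With WT-ERG 16 of 42 members were lower and 5 higher, against 14.1% and 15.6% of all genes tested. With P199L-ERG 14 were lower and 4 higher, against 12.9% and 15.3%. Without both libraries that stood apart, 18 were lower and 6 higher with WT-ERG, and 16 lower and 5 higher with P199L-ERG. Of the calls this changed, those not given with the gene were *Naglu*, which passed with neither construct (-0.14, adjusted p = 0.0903, and -0.16, adjusted p = 0.0729), *Ctsd*, *Atp6v1h* and *Arsb*, which passed with WT-ERG (0.10, -0.12 and -0.12), and *Gaa*, which passed with P199L-ERG (0.21, adjusted p = 0.00494). The median log2 difference of the members was -0.09 and -0.07, against 0.01 and 0.02 for all genes. Both comparisons use the same BB libraries, so their values are given side by side.

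Among the lipid genes 5 of 8 were lower with WT-ERG and 5 of 8 with P199L-ERG. *Psap*, for which the values of each library are given above, was lower by 0.52 (SE 0.03, adjusted p = 8.95e-13) and 0.31 (SE 0.03, adjusted p = 4.29e-08), with no overlap. *Galc* was at 56.8 ± 3.36 CPM in BB, 46.4 ± 2.41 CPM in WT-ERG and 47.9 ± 1.41 CPM in P199L-ERG cells, lower by 0.29 (SE 0.04) and 0.25 (SE 0.04). *Lipa* was lower by 0.24 (SE 0.05) and 0.21 (SE 0.05). *Ppt1* was lower by 0.14 with each (SE 0.04). *Npc2*, which hands cholesterol to the membrane transporter NPC1, was lower by 0.24 with WT-ERG (SE 0.05, adjusted p = 0.000206) and by 0.15 with P199L-ERG (SE 0.05, adjusted p = 0.015). The P199L-ERG call of *Npc2* ended without P199L-ERG replicate 1 (-0.12, adjusted p = 0.0631) or 2 (-0.13, adjusted p = 0.0535). *Gm2a* was higher, by 0.18 (SE 0.03) and 0.14 (SE 0.03).

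Of the membrane proteins, *Lamp1* was lower by 0.27 (SE 0.03, adjusted p = 1.92e-07) with WT-ERG and by 0.26 (SE 0.03, adjusted p = 7.35e-07) with P199L-ERG. Its DMSO libraries held 507, 520.4, 542 and 550.5 CPM in BB, 431, 429.5, 435 and 457 CPM in WT-ERG and 431, 449.5, 451 and 438 CPM in P199L-ERG cells, so both ERG groups lay under all BB libraries. *Mcoln1* was lower by 0.36 (SE 0.07) and 0.29 (SE 0.07). *Cd68* was higher by 0.29 (SE 0.05, adjusted p = 0.000143) and 0.22 (SE 0.05, adjusted p = 0.00265), while *Lamp2* differed by -0.01 (95% confidence interval -0.07 to 0.05) and -0.03 (-0.10 to 0.03).

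The glycosidase *Man2b1* was lower by 0.28 (SE 0.06) with WT-ERG and by 0.40 (SE 0.06) with P199L-ERG, and its P199L-ERG libraries were spread from 357 to 511 CPM. *Neu1* was lower by 0.21 (SE 0.03) and 0.12 (SE 0.03), and *Hexa* was lower with WT-ERG only by the test (-0.20, SE 0.05), with a value of -0.08 with P199L-ERG, where it passed without both libraries that stood apart (-0.13, adjusted p = 0.0167). *Gla* was higher, at 54.6, 60.9, 64.8 and 61.4 CPM in BB, 69.8, 68.5, 76.6 and 76.02 CPM in WT-ERG and 69.2, 69.6, 72.5 and 91.3 CPM in P199L-ERG cells (0.27, SE 0.07, and 0.32, SE 0.06), with P199L-ERG replicate 4 above the other 3. *Glb1* was higher with WT-ERG (0.20, SE 0.04).

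Among the enzymes of glycosaminoglycan breakdown, *Idua* was lower with P199L-ERG, at 20.7, 20.6, 22.1 and 20.4 CPM against 24.8, 27.2, 26.7 and 28.5 CPM in BB cells (-0.35, SE 0.08, adjusted p = 0.000897). With WT-ERG it was at 24.1, 23.7, 23.2 and 22.3 CPM, without overlap with BB, and its difference of -0.20 (SE 0.08) did not pass (adjusted p = 0.0507). *Ids* was higher with WT-ERG (0.47, SE 0.15, adjusted p = 0.0156), although a WT-ERG library overlapped the BB libraries and the call ended without BB replicate 4 (0.41, adjusted p = 0.0581) or WT-ERG replicate 3 (0.38, adjusted p = 0.0978). *Naglu* was lower by 0.16 and 0.17 (SE 0.06 in each), with overlapping groups and calls that ended without any one of 6 and 5 of the 8 libraries. *Sgsh* differed by -0.43 (SE 0.19) and -0.15 (SE 0.18), neither of which passed.

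Of the proteases, *Ctss* was lower with both constructs, with 25 reads over the 4 BB libraries against 4 with WT-ERG (ratio 0.153, 95% exact counting interval 0.0387 to 0.443) and 2 with P199L-ERG (ratio 0.0757, interval 0.00869 to 0.303). *Tpp1* was lower with P199L-ERG (-0.20, SE 0.05, adjusted p = 0.00289) and at -0.11 (SE 0.05) with WT-ERG, which did not pass, but passed without both libraries that stood apart (-0.12, adjusted p = 0.0122). *Ctsd* was higher with P199L-ERG (0.17, SE 0.05, adjusted p = 0.0163). That call ended without P199L-ERG replicate 4 (0.07, adjusted p = 0.0751) or BB replicate 2 (0.15, adjusted p = 0.053). *Ctsa*, *Ctsb*, *Ctsl* and *Ctsz* passed against BB with neither construct.

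*Tfe3* was lower by 0.23 (SE 0.05, adjusted p = 0.00106) and 0.18 (SE 0.05, adjusted p = 0.00983), and no ERG library reached the BB libraries. *Tfeb* was lower with WT-ERG (-0.28, SE 0.08, adjusted p = 0.0087), with 1 of 4 libraries overlapping those of BB cells, and the call ended without BB replicate 4 (-0.22, adjusted p = 0.0523). With P199L-ERG its difference of -0.20 (SE 0.08) did not pass (adjusted p = 0.0597). Without both libraries that stood apart it was -0.24 and passed (adjusted p = 0.028). *Mitf* differed by -0.07 (95% confidence interval -0.37 to 0.23) and -0.25 (-0.56 to 0.05), neither of which passed. *Atp6v0d1* was lower with WT-ERG (-0.21, SE 0.06), and at -0.10 with P199L-ERG, where it passed without both libraries that stood apart (-0.19, adjusted p = 5.13e-05). *Atp6ap1* was lower with WT-ERG (-0.09, adjusted p = 0.0396), a call that ended without any one of 5 libraries.

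Set directly against each other in DMSO, the ERG constructs differed in 1 member, *Psap*, against 2.23% of all genes that were higher and 2.45% that were lower with P199L-ERG. *Psap* was higher with P199L-ERG by 0.21 (SE 0.03, adjusted p = 0.000196), with P199L-ERG libraries of 329.9, 322, 332 and 361 CPM all above the WT-ERG libraries of 297, 286, 290.5 and 292 CPM. *Ids* (-0.32, SE 0.14), *Ctsl* (-0.16, SE 0.09) and *Sgsh* (0.29, SE 0.19) did not pass, with adjusted p = 0.264, 0.406 and 0.495. *Tfeb*, *Tfe3* and *Mitf* differed by 0.08 (95% confidence interval -0.09 to 0.25), 0.05 (-0.06 to 0.15) and -0.19 (-0.49 to 0.12).

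Under BRD3308, WT-ERG cells had 15 members below and 3 above their level in BB cells, against 10.7% and 10.4% of all genes, and 13 were lower and 1 higher with P199L-ERG, against 8.81% and 8.12%. With WT-ERG, 9 were lower without a filter on low counts, and 5 were higher with scaling by library size alone and 6 with the groups compared alone. With P199L-ERG, 2 and 3 were higher under the last pair of settings. The 1 higher gene was *Gla* (0.18, adjusted p = 0.0498), whose call ended without any one of the 8 libraries. *Psap* was again lower, by 0.53 (SE 0.03) and 0.42 (SE 0.03), and *Lamp1* by 0.20 (SE 0.03) and 0.24 (SE 0.03). *Tfeb* was lower by 0.31 (SE 0.08) and 0.28 (SE 0.08), and *Tfe3* by 0.18 (SE 0.05) and 0.17 (SE 0.05). The P199L-ERG call of *Tfeb* ended without BB replicate 4 (-0.23, adjusted p = 0.0733) or P199L-ERG replicate 1 (-0.24, adjusted p = 0.0603), and that of *Tfe3* without any one of 4 libraries. *Lipa*, lower in DMSO with both constructs, differed by -0.02 (95% confidence interval -0.12 to 0.07) and 0.01 (-0.08 to 0.10) with BRD3308. No member passed between the ERG constructs with BRD3308, against 1.31% of all genes higher and 2.09% lower, and at an unadjusted p under 0.05 there were 6 members by edgeR, against 12.5% of all genes. DESeq2, limma-voom and scaling by library size alone each called 1, and the groups compared alone gave 1 higher and 1 lower.

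**Figure D5:**
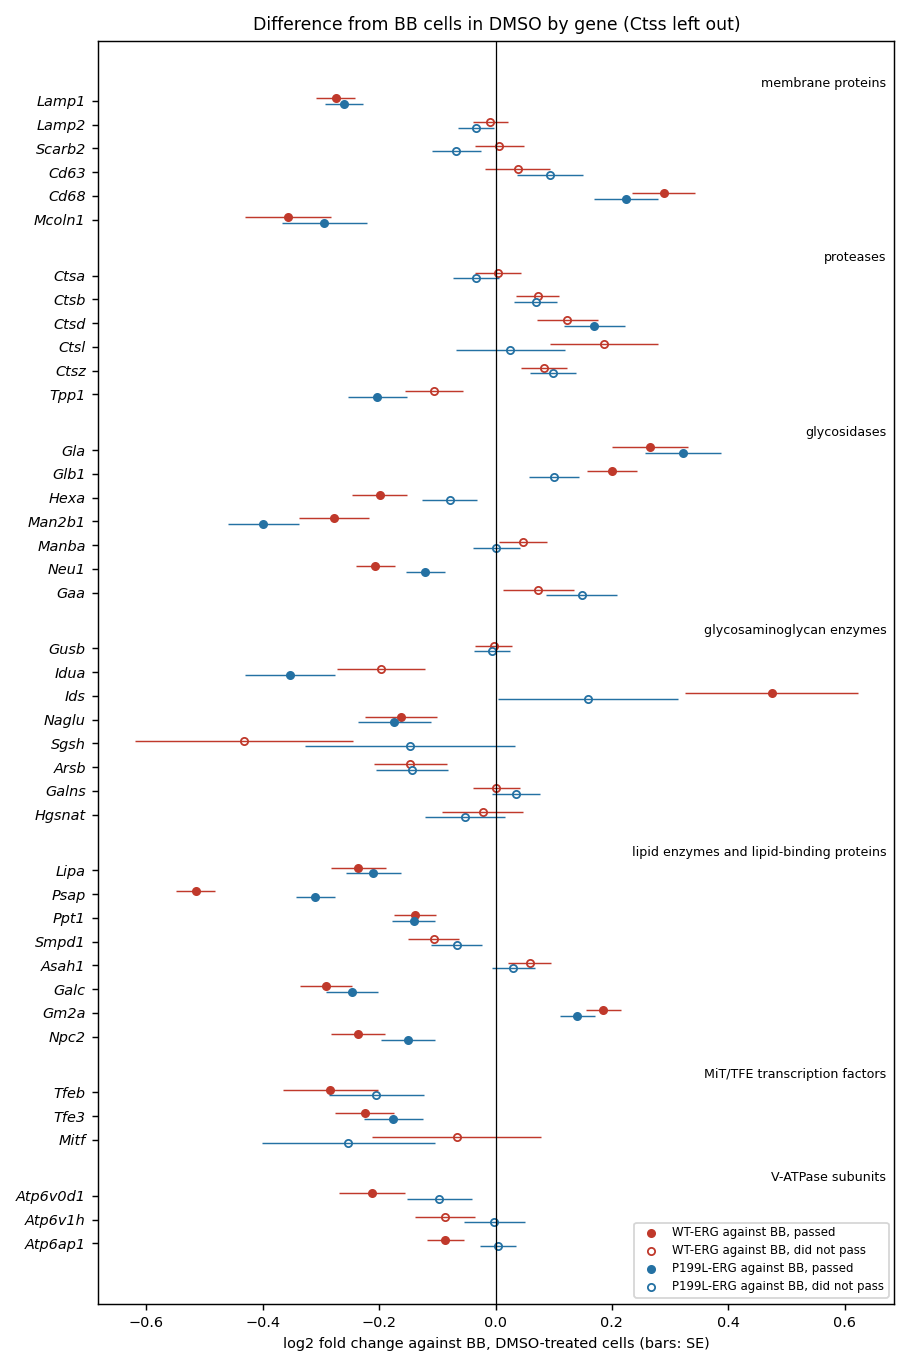
Log2 difference from BB cells in DMSO for 41 lysosomal genes by role, with bars of 1 SE from the edgeR fit (red WT-ERG, blue P199L-ERG; filled points passed at an adjusted p under 0.05, open points did not). *Ctss* is left out of the plot. Most filled points lie to the left of 0, with that of *Psap* for WT-ERG farthest out, and the filled points of *Cd68*, *Gla*, *Gm2a* and *Ids* lie to the right.

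Monocyte markers differed between constructs as well. Of the 7 tested, 5 were lower and 1 higher with WT-ERG than in BB cells in DMSO, and 5 were lower and 1 higher with P199L-ERG, with group means of 807 ± 20.9 CPM in BB, 428 ± 9.59 CPM in WT-ERG and 503 ± 27.1 CPM in P199L-ERG cells (SD, n = 4). Of 9 neutrophil markers 5 and 6 were lower and 2 and 1 higher. Among all genes tested, 14.1% and 12.9% were lower and 15.6% and 15.3% higher. The part of these markers' cell types in the differences of the lysosomal genes was not tested.

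Members lower or higher with an ERG construct were then followed in the response to BRD3308 of the other ERG construct, which uses other libraries. Of the 16 members lower with WT-ERG, 7 rose in P199L-ERG cells (43.8%): *Ctss*, *Lipa*, *Mcoln1*, *Naglu*, *Ppt1*, *Psap* and *Tfe3*. Among all genes lower with WT-ERG the share was 43.7%. Of the 14 members lower with P199L-ERG, 10 rose in WT-ERG cells (71.4%), against 46.4% of all genes lower with P199L-ERG. Of the 5 members higher with WT-ERG, *Cd68* and *Ids* rose in P199L-ERG cells (40%), against 26.5% of all genes higher with WT-ERG. Of the 4 higher with P199L-ERG, *Cd68* rose in WT-ERG cells (25%), against 20.9%. The members that did not pass against BB rose in 28.6% and 29.2%, against 20.1% and 21.7% of all such genes. The 7 and the 10 members that rose both include *Ctss*, which was tested because of its reads with BRD3308. Its rise is thus no independent support for either share. The 10 also include *Lamp1*, whose call with WT-ERG ended without any one of 6 libraries. The groups of members are small, and no test of these shares was made.

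Other genes of the lysosome were counted from lists outside the 43. For this list and those that follow, the shares of all genes tested are the measure. With BRD3308, 24%, 24.7% and 24.4% of all genes rose and 22%, 23.2% and 24.1% fell in BB, WT-ERG and P199L-ERG cells. Against BB in DMSO, 14.1% were lower and 15.6% higher with WT-ERG, and 12.9% lower and 15.3% higher with P199L-ERG. Several counts below are near these shares, and none was tested against them. These lists, too, were chosen with earlier results of these data known. Of 30 other hydrolases and luminal proteins, 12 rose and 6 fell in BB, 11 rose and 1 fell in WT-ERG, and 12 rose and 6 fell in P199L-ERG cells. The largest rises among the smallest p-values were those of the sulfatase *Arsg* (1.28, 1.58 and 1.43 in BB, WT-ERG and P199L-ERG cells) and the carboxypeptidase *Scpep1* (0.82, 0.81 and 0.79). Against BB in DMSO, 12 were lower and 2 higher with WT-ERG and 9 lower and 1 higher with P199L-ERG, with *Fuca2*, an α-fucosidase (-0.29 and -0.23), among the lower.

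Of 22 other membrane proteins and transporters, 8 rose and 6 fell in BB, 11 rose and 4 fell in WT-ERG, and 10 rose and 4 fell in P199L-ERG cells. *Cln3*, a membrane protein mutated in juvenile Batten disease, rose by 0.39, 0.43 and 0.37, and the endolysosomal ion channel gene *Tpcn2* fell by 0.52, 0.43 and 0.36. Against BB in DMSO, 13 were lower and 2 higher with WT-ERG and 14 lower and 1 higher with P199L-ERG, among them the cholesterol transporter *Npc1* (-0.38 and -0.43) and *Laptm5*, a lysosomal membrane protein of blood cells (-0.42 and -0.32). Of 16 other V-ATPase subunits, 5 rose and 3 fell, 6 rose and 3 fell, and 3 rose and 4 fell in the 3 responses. *Atp6v0a1* rose by 0.36, 0.37 and 0.33, and *Atp6ap2* fell by 0.37, 0.33 and 0.44. Against BB 5 and 6 subunits were lower and 0 and 1 higher, with *Atp6v1c1* at -0.42 and -0.29.

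The genes of mannose 6-phosphate tagging and sorting fell or did not pass. Of 12 tested, 8, 9 and 7 fell with BRD3308 in BB, WT-ERG and P199L-ERG cells and 0 rose. The adaptor *Gga2* fell by 0.53, 0.25 and 0.43, and *Nagpa*, the enzyme that uncovers the mannose 6-phosphate tag, by 0.38, 0.30 and 0.27. Against BB in DMSO 4 were lower with WT-ERG and 5 with P199L-ERG, led by the sorting receptor *Sort1* (-2.15, SE 0.06, adjusted p = 3.5e-21, and -1.96, SE 0.06, adjusted p = 3.44e-20), with 0 higher.

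Of 19 genes of mTORC1 and folliculin control of the MiT/TFE factors, 3 rose and 8 fell in BB, 4 rose and 7 fell in WT-ERG, and 5 rose and 6 fell in P199L-ERG cells. *Flcn*, folliculin, which helps mTORC1 to phosphorylate TFEB and TFE3, fell by 0.50, 0.40 and 0.45. *Tfec*, the fourth MiT/TFE gene, which is expressed in macrophages, rose by 0.55, 0.71 and 0.64. Against BB in DMSO *Tfec* was lower by 0.99 (SE 0.05) with WT-ERG and by 1.26 (SE 0.05) with P199L-ERG, and it was lower with P199L-ERG than with WT-ERG by 0.28 (SE 0.06, adjusted p = 0.0026). Of the list, 8 genes were lower and 2 higher with WT-ERG, and 6 lower and 1 higher with P199L-ERG.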

How the data were processed

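RNA-seq was done on 24 libraries of ER-Hoxb8 cells, 4 in each of 6 groups taken from the sample titles. The deposited table holds raw read counts per gene, without normalization. The authors dropped reads under 30 bases and mapped the rest to GRCm38 with STAR, and DESeq2, HTSeq and cutadapt stand beside STAR in the processing notes of the submitters. No source used here gives their versions, the gene annotation or the strand setting. Total counts per library were 12510036 to 16280939.

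The 43 members and the lists of other lysosomal, autophagy, cystatin and cell type genes were chosen with earlier results of these data known. Genes with enough reads by edgeR's filterByExpr (minimum count 10) were kept, scaled by TMM and fitted in 1 quasi-likelihood model of 6 groups (edgeR 4.0.16, R 4.3.3). P-values are two-sided and adjusted by Benjamini-Hochberg over 12963 genes, with 0.05 as the threshold. The SE was taken as the size of the log2 fold change over the root of its F statistic. CPM are counts per 1000000 of the TMM-scaled library, and RPKM divide them by the exon length of GENCODE M21 genes. The fit was tested on simulated data.

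Within each role, up to 4 members a direction with the smallest adjusted p were named, and values of each library are given for *Tfeb*, *Tfe3*, *Mitf* and the members with the 3 highest and 3 lowest fold changes in a comparison or the 3 smallest p of a response difference. Some further members are given by library for the same display. Where groups of libraries are said not to overlap, this describes the single gene, and the share of all genes without overlap is not given. A few genes of the other lists are not reported here. Alternatives were other scaling, filters, DESeq2 1.42.0, limma-voom (limma 3.58.1), the groups compared alone, a replicate block, and libraries left out.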

Additional observations from a re-analysis of the deposited data

Results flagged for a closer look

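In each group of 4 libraries, a library was singled out where its gap to the nearest other library was too large a part of the group's range by Dixon's 95% critical value. Of 252 sets of 4 values, 15 were singled out, and chance flags about 1 in 20.

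Replicate 4 of DMSO-treated P199L-ERG cells held 4 of them. It was high for *Gla* (91.3 CPM, others 69.2 to 72.5), *Atp6v0d1* (220.5 CPM, others 169 to 175) and *Atp6v1h* (86.4 CPM, others 70.6 to 71.5) and low for *Arsb* (177 CPM, others 238 to 249). Replicate 4 of DMSO-treated WT-ERG cells held 2, with *Arsb* low (212 CPM, others 229 to 231) and *Tfeb* high (30.2 CPM, others 25.7 to 26.0). These are the libraries with high counts for short genes, and the part of that deviation in the values was not tested.

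The other 9 lay in 9 different libraries. In BB cells with DMSO, *Ctss* was high in replicate 2 (0.762 CPM, others 0.286 to 0.352), *Glb1* high in replicate 4 (122 CPM, others up to 112) and *Npc2* low in replicate 3 (358 CPM, others from 367). In BB cells with BRD3308, *Lamp2* was high in replicate 4 (842 CPM, others up to 803), *Ctsd* low in replicate 2 (767 CPM, others from 781) and *Naglu* high in replicate 1 (59.0 CPM, others up to 54.5). In P199L-ERG cells with BRD3308, *Lamp1* was low in replicate 1 (438 CPM, others from 455), *Arsb* high in replicate 2 (226 CPM, others up to 221) and *Npc2* high in replicate 4 (309 CPM, others up to 300.3).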

How the results depend on the processing

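No member changed direction with a call under any alternative, and the counts below are members called, with the reported count in brackets. With genes over 30 reads in every library, 3 fell with WT-ERG (6) and 0 were higher with P199L-ERG than BB in BRD3308 (1). Without a filter, 9 were lower with WT-ERG than BB in BRD3308 (15) and 1 response was higher in P199L-ERG minus BB (0). With library size alone, 5 (3), 2 (1) and 1 (0) were higher in BRD3308 for WT-ERG against BB, P199L-ERG against BB and P199L-ERG against WT-ERG. With the groups compared alone these were 6, 3 and 1, with 1 lower in the last (0). DESeq2 called 2 higher with P199L-ERG than WT-ERG in DMSO (1) and 1 in BRD3308 (0), 2 higher and 1 lower response in WT-ERG minus BB (0) and 1 lower in P199L-ERG minus BB (0). Limma-voom called 1 higher with P199L-ERG than WT-ERG in BRD3308 (0). Without both libraries with high counts for short genes, 2 responses were higher in WT-ERG minus BB (0) and 1 lower in P199L-ERG minus BB (0). The cause was not tested.

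Replicate numbers were not treated as pairs, since correlations of same-numbered libraries ran from -0.005 to 0.295, although 17 of 24 libraries correlated best with their own number. Same-numbered pairs had a median correlation of 0.083, with 29 of 60 over 0.1. Pairs with different numbers had a median of -0.024, with 2 of 180 over 0.1. A batch shared by libraries of the same number was not tested. With a replicate block, 8 were higher than BB with WT-ERG (5) and with P199L-ERG (4) in DMSO, and 6 (3) and 4 (1) in BRD3308. P199L-ERG against WT-ERG in BRD3308 had 1 higher and 1 lower (0), and the response differences had 1 lower in WT-ERG minus BB and 1 higher and 2 lower in P199L-ERG minus BB (0). The block added 34 calls and ended 0.

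Leaving out each library in turn, 31 of 149 calls ended at least once. Members that rose and fell ranged over 18 to 20 and 9 to 9 in BB, 16 to 19 and 5 to 7 with WT-ERG, and 14 to 16 and 8 to 10 with P199L-ERG. Higher and lower counts were 4 to 5 and 13 to 17 for WT-ERG against BB, 3 to 6 and 12 to 16 for P199L-ERG against BB and 1 to 2 and 0 to 0 for P199L-ERG against WT-ERG in DMSO. In BRD3308 they were 2 to 3 and 11 to 15, 0 to 0 and 10 to 13, and 0 to 1 and 0 to 0. Response differences stayed at 0, except 0 to 1 lower in P199L-ERG minus BB. Few reads limit *Ctss*, *Sgsh*, *Ids* and *Mitf*, all under 20 CPM in each library.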

Other observations

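Genes of autophagy, the route by which cytoplasm reaches the lysosome, moved in both directions. Of 19 tested, 3 rose and 5 fell with BRD3308 in BB cells, 4 rose and 4 fell with WT-ERG, and 3 rose and 3 fell with P199L-ERG. Those counts are near or under the shares of all genes tested, of which 24%, 24.7% and 24.4% rose and 22%, 23.2% and 24.1% fell. The autophagy receptor *Sqstm1* rose by 0.39, 0.24 and 0.13 on the log2 scale, and *Gabarapl1*, an ATG8 family member, by 0.34, 0.22 and 0.24. *Wipi1*, which binds phosphoinositides on the forming autophagosome, fell by 0.44, 0.27 and 0.43, and *Atg5*, part of the conjugation system, by 0.28, 0.22 and 0.25. Against BB in DMSO, 5 were lower and 3 higher with WT-ERG and 5 lower and 4 higher with P199L-ERG, with the kinase *Ulk1* at -0.33 and -0.30 and *Atg12* at 0.25 and 0.24. Of all genes, 14.1% were lower and 15.6% higher with WT-ERG, and 12.9% lower and 15.3% higher with P199L-ERG.

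Of 3 cystatins, which inhibit cysteine cathepsins, *Cst7* was higher than in BB cells with WT-ERG (0.35, SE 0.05) and P199L-ERG (0.46, SE 0.05) in DMSO, and it fell with BRD3308 in P199L-ERG cells (-0.25, SE 0.04). *Cstb* rose with BRD3308 in WT-ERG cells only by the test (0.35, SE 0.09), and was lower there than in BB cells in DMSO (-0.32, SE 0.09). *Cst3* passed in the P199L-ERG response alone among the 3 responses (-0.16, SE 0.06).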
